A study of Arabidopsis thaliana with 12 samples.

Results

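The eml1-/-eml2-/- double mutant of Arabidopsis thaliana was compared with the wild type in RNA of whole seedlings. The comparison uses 6 of the 12 samples of the study, the 3 labelled eml12 and the 3 labelled WT, and takes every gene with a mean value of at least 1 over the 12 samples: 22315 of the 32548 genes of the deposited table. The other 6 samples are 3 of gte4-/- and 3 of gte4-/-eml1-/-eml2-/-, called the triple mutant here, and they enter where the double mutant is set against them. Plants of each genotype spent 12 days on MS medium plates and were then grown in soil to an age of 20 days, in 16 h of light and 8 h of dark at 22 °C. The labels give no treatment, and RNA was taken with TRIzol and sequenced as read pairs. The labels name the mutated genes but not the alleles, the ecotype or the hour of harvest, and they do not say whether the 3 samples of a genotype are separate plants, pools or library preparations. The p-values below therefore measure only the spread between these samples, which may be technical. In whole seedlings, fewer cells of a type and less RNA per cell cannot be told apart. Values are normalized read counts as deposited, so levels of different genes are not compared with each other, and a change is given on the log2 scale after 1 was added to each value.

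EML1 and EML2 belong to the EMSY-like family, plant proteins with an ENT domain and a Tudor-like domain, a fold known in other proteins for reading methylated histone tails. GTE4 is a bromodomain protein, and bromodomains bind acetylated lysines. According to the series' title, GTE4 and EML form a chromatin reader complex for acetylated histones and for histone H3 trimethylated at lysine 4, both marks of active genes. The comparison addresses which transcripts differ when the EML side of that complex is mutated.

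EML2 (AT5G06780) transcript was reduced in the double mutant and EML1 (AT3G12140) transcript was not. EML2 read 612, 549 and 546 in the wild type libraries and 117, 112 and 94.7 in the double mutant libraries. The groups were far apart, with a log2 change of -2.39 (SE 0.114, adjusted p = 3.04e-09). EML1 read 1004, 868 and 911 in wild type and 1006, 913 and 907 in the double mutant. These ranges overlapped, and the adjusted p was 0.86. A value summed over a gene does not show whether an insertion breaks the transcript, so the eml1 mutation could not be checked. The related family members EML3 (log2 change -0.056, adjusted p = 0.501) and EML4 (0.096, adjusted p = 0.619) did not pass the test. GTE4 read 1753, 1618 and 1737 in wild type and 2197, 2134 and 2202 in the double mutant, so that the 3 mutant libraries lay above the wild type ones. Its log2 change of 0.36 did not pass (adjusted p = 0.0878), but did so with only the 2 genotypes fitted (0.00152) and without gte4 replicate 2 (0.00808). Among the other bromodomain genes of the family, GTE10 (AT5G63320) rose from 858 ± 139.6 to 1284 ± 74.7 (SD, n = 3; log2 change 0.59, adjusted p = 0.000346).

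Of the 22315 genes tested, 5271 were called at an adjusted p under 0.05, or 23.6%. Of these 2592 were higher in the double mutant (11.6% of genes tested) and 2679 were lower (12.0%). Counts in the gene lists against wild type stand beside these shares. Most changes were small: 3509 of the called genes moved by less than 0.5 on the log2 scale, 402 rose by more than 1 and 157 fell by more than 1. The median log2 change of all genes tested was 0.0059. Totals per library ran from 31990484 to 34322625 normalized counts, and the depth in reads is unknown. Pairs of libraries were compared by Pearson's r across genes, which are not independent replicates: r was 0.9853 to 0.9874 within the double mutant, 0.9856 to 0.9888 within the wild type, and 0.977 to 0.9817 from one genotype to the other. The call held in 1 direction in all 23 alternative treatments of the data for 2622 of the genes. Among these treatments, a minimum mean of 20 left only 18249 genes tested, so genes below that mean could not be among the 2622. The number called depended on single libraries: it was 3756 without WT replicate 2, and 3929 and 3883 without eml12 replicates 1 and 2.

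**Figure D1:**
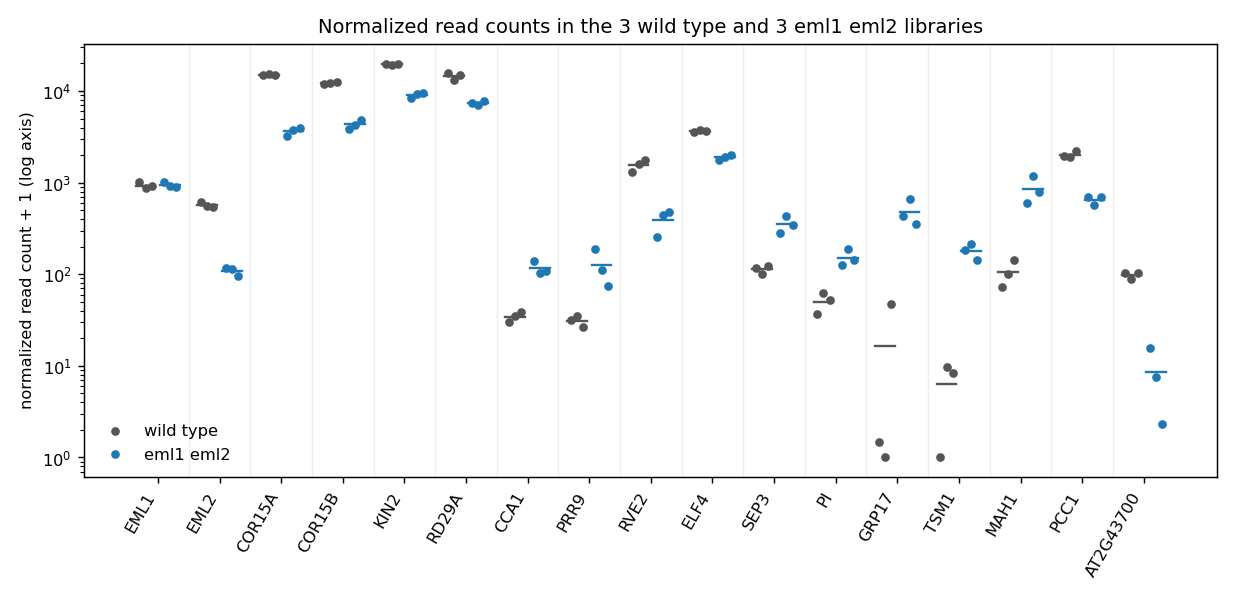
Normalized read count plus 1, on a log axis, of 17 genes in the 3 wild type (grey) and 3 eml1 eml2 (blue) libraries. Each point is a library and each bar a group mean, and the groups overlap for EML1 alone among the genes drawn. Over all genes, the groups do not overlap for 8678 of the 22315 tested and for 5137 of the 5271 called. Levels are to be compared within a gene.

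Transcripts of cold and dehydration effector proteins fell together. These proteins protect membranes and other proteins when cells lose water in cold or drought, and their genes are known targets of the CBF transcription factors, which bind the CCGAC core of the dehydration-responsive element. Of 16 tested members 10 were lower and none was higher, with a median log2 change of -0.71, beside 12.0% lower and a median of 0.0059 over all genes. Over the alternatives 9 to 13 members were called lower. Normalized counts of COR15A (AT2G42540), a chloroplast protein that shields membranes during freezing, were 14868, 15206 and 14801 in wild type and 3196, 3735 and 3945 in the double mutant. Its paralog and neighbour COR15B (AT2G42530) read 11987, 12308 and 12488 against 3888, 4258 and 4872. Neither gene's libraries came near to overlapping, and the log2 changes were -2.05 (SE 0.0633, adjusted p = 6.23e-12) and -1.504 (SE 0.0744, adjusted p = 1.02e-08). Groups were also apart for RD29B (AT5G52300), a protein induced by abscisic acid, which read 30.9, 29.9 and 32.2 in wild type and 5.31, 3.801 and 1.19 in the mutant. Its log2 change of -2.98 was the deepest of the group (adjusted p = 0.000137). Its neighbour RD29A (AT5G52310) went from 14611 ± 1166 to 7371 ± 341 (log2 change -0.99), KIN2 (AT5G15970) from 19585 ± 407 to 9104 ± 645 (-1.11) and the dehydrin COR47 (AT1G20440) from 10732 ± 1455 to 4892 ± 839 (-1.14). Because COR15A and COR15B, and KIN1 and KIN2, are close copies, reads may have been split between them.

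The 250 bases upstream of the annotated gene start are shown for the 4 called effectors whose window holds CCGAC, the core bound by CBF factors. Capitals mark CCGAC or its reverse complement GTCGG, searched on both strands, and the remaining bases are in lower case, read 5′ to 3′ on the strand of the gene from the TAIR10.1 assembly of RefSeq. The windows lie at chr5:21236771-21237020 (plus strand), chr2:17712331-17712580 (minus strand), chr5:21240467-21240716 (plus strand) and chr2:7757930-7758179 (minus strand).
RD29B: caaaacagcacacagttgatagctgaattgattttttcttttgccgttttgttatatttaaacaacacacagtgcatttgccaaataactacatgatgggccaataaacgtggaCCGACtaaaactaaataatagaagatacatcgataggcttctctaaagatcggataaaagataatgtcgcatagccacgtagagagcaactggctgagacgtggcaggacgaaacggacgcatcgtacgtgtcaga
COR15A: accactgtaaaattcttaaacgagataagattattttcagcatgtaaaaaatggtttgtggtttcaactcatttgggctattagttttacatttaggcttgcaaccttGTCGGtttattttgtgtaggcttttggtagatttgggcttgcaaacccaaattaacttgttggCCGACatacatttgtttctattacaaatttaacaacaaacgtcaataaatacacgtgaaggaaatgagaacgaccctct
RD29A: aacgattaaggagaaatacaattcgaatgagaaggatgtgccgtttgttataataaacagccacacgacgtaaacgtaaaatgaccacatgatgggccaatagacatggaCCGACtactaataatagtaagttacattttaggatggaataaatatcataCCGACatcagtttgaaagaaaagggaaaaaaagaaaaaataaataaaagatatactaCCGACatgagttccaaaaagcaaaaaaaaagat
ERD7: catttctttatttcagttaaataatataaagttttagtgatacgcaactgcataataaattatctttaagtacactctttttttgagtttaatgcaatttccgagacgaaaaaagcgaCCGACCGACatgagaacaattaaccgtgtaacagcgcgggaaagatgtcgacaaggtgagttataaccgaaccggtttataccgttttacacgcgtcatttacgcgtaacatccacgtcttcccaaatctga
RD29A holds 3 matches, COR15A holds 2 on opposite strands, RD29B holds 1, and the 2 in ERD7 (AT2G17840, a dehydration-induced protein) overlap by 1 base. In ERD7 the log2 change was -0.44 (adjusted p = 5.34e-05). Among the 10 called effectors 4 had a match in this window, and among the 16 tested ones 7, or 43.8%, had a match. Over the windows of 21401 tested protein-coding genes 12.6% held the motif. The share was 12.1% of the genes called higher and 13.1% of those called lower, close to that of all genes. A match describes the letters of the window and does not show that a factor binds there.

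Among regulators of the cold response, 2 of 10 tested genes were lower and 1 higher, beside 12.0% lower and 11.6% higher over all genes tested. CBF1 (AT4G25490), an activator of the effector genes, read 41.5, 95.9 and 87.02 in wild type and 17.3, 27.7 and 18.8 in the double mutant, without overlap, and its log2 change was -1.71 (adjusted p = 0.00248). RAP2.1 (AT1G46768), a repressor of the same gene group, had a log2 change of -0.79 (adjusted p = 0.0248), a call that ended without WT replicate 2 (0.096), without eml12 replicate 2 (0.0544) and without eml12 replicate 3 (0.0989). CBF2 and CBF3, the neighbours and paralogs of CBF1, had log2 changes of -0.69 (adjusted p = 0.44) and -1.04 (adjusted p = 0.42), and CBF3 in the double mutant ranged from 52.4 to 343. CBF2 passed without WT replicate 1 (0.025). Without WT replicate 1 the number of regulators called lower was 4.

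Genes of the circadian clock changed in both directions. The clock is a set of transcription factors that repress one another in a daily order, with CCA1 and LHY in the morning, the PRR genes through the day and the evening complex at dusk, and levels of its genes depend on the hour of harvest, which the labels do not give. Of 14 tested morning genes 5 were higher and 2 lower, beside 11.6% higher and 12.0% lower over all genes tested. Their median log2 change was 0.59, and with a replicate block 8 were higher. CCA1 (AT2G46830) read 29.01, 33.8 and 37.7 in wild type and 140.2, 102 and 107 in the double mutant. All mutant libraries exceeded all wild type ones, at a log2 change of 1.76 (SE 0.186, adjusted p = 1.03e-05). The LNK genes, transcriptional coactivators that work with the REVEILLE factors, were the other 4 that rose: LNK3 by 1.13, LNK4 by 1.07, LNK2 by 0.79 and LNK1 by 0.38 on the log2 scale. RVE2 (AT5G37260), a MYB factor of the CCA1 family, went the other way, from 1298, 1589 and 1759.7 to 257, 445 and 472 (log2 change -2.02, SE 0.357, adjusted p = 0.00443). LHY, which is usually grouped with CCA1, did not pass (log2 change 0.69, adjusted p = 0.13) except with a replicate block (0.0298).

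Of 14 tested day and evening genes 3 were higher and 4 lower, beside 11.6% higher and 12.0% lower over all genes tested. PRR9 (AT2G46790), the earliest of the PRR repressors, read 31.02, 33.9 and 25.7 in wild type and 190, 111 and 73.4 in the double mutant (log2 change 1.91, adjusted p = 0.000814). PRR7 (AT5G02810) rose by 0.55 (adjusted p = 0.00101). ELF4 (AT2G40080), a part of the evening complex, read 3606, 3731 and 3679 against 1779.9, 1928 and 1998, with no overlap and a log2 change of -0.95 (adjusted p = 3.63e-07). BOA (AT5G59570), a relative of the evening complex factor LUX, fell from 307 ± 36.2 to 154 ± 41.9 (-1.02), and PRR3 (AT5G60100) fell by 0.595 on the log2 scale.

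Transcripts that promote flowering or mark flowers were higher in the double mutant. FT carries the flowering signal from the leaf to the shoot tip, SOC1, FUL and the SPL factors act on it there, and LFY and AP1 give a meristem its floral identity, after which MADS-box genes such as AP3, PI, AG and the SEP genes specify the organs. Of 14 tested promoters of flowering 7 were higher and none was lower (5 to 8 over the alternatives), with a median log2 change of 0.43. Over all genes tested 11.6% were higher and 12.0% lower. AP1 (AT1G69120) read 93.5, 100.4 and 136 in wild type and 179.7, 221 and 249 in the double mutant (log2 change 0.98, adjusted p = 0.000242). SPL5 (AT3G15270) rose by 0.901, SPL9 (AT2G42200) by 0.65 and SPL4 (AT1G53160) by 0.45, while SOC1 (AT2G45660) moved from 1850.2 ± 83.7 to 2225 ± 106 (0.27, adjusted p = 0.00151). LFY (AT5G61850) rose by 0.91 (adjusted p = 0.0207), a call that ended with only the 2 genotypes fitted, without WT replicate 1 and without eml12 replicate 2 or 3 (adjusted p from 0.0516 to 0.0933). FT (AT1G65480) read 27.3, 7.61 and 13.2 in wild type and 20.7, 38.1 and 34.99 in the double mutant, so the libraries overlapped, and it missed the threshold (log2 change 1.05, adjusted p = 0.0543). It passed with the length trend removed, with a replicate block, with a replicate block and the length trend removed, without WT replicate 1, without gte4 replicate 3 and without eml12 replicate 1 (adjusted p from 0.00474 to 0.0487).

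Of 16 tested repressors of flowering 4 were lower and 1 higher, beside 12.0% lower and 11.6% higher over all genes tested. SVP (AT2G22540), a MADS-box repressor, went from 3060.1 ± 122 to 2506 ± 128 (log2 change -0.29, adjusted p = 0.00226), and MAF1 (AT1G77080) fell by 0.27 on the log2 scale. MAF4 (AT5G65070), another member of the FLC clade, had few counts, 27.2, 7.61 and 14.2 against 1.13, 0.909 and 6.405, and its call (adjusted p = 0.0188) ended with a pseudocount of 0.1, without WT replicate 1 or 3 and without eml12 replicate 1 or 2 (adjusted p from 0.0505 to 0.0809). The number of repressors called lower was 2 without WT replicate 3, without eml12 replicate 1, with a pseudocount of 0.1 and with a minimum mean of 20, and 7 with a replicate block. FLC itself (AT5G10140), the repressor that vernalization silences, read 17.8, 4.74 and 11.6 in wild type and 11.7, 4.68 and 6.63 in the double mutant. Its groups overlapped (adjusted p = 0.602), and 68.1% of its exon bases are shared with another annotated gene.

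Genes of floral organ identity were higher, 7 of 12 higher and none lower, with a median log2 change of 1.12 (6 to 8 higher over the alternatives). SEP3 (AT1G24260), a cofactor of most floral organ factors, read 115, 100.4 and 121 in wild type and 283, 435 and 346 in the double mutant. PI (AT5G20240), which with AP3 specifies petals and stamens, read 35.5, 61.01 and 50.97 against 125, 186 and 141. In both genes the groups stood apart, with log2 changes of 1.63 (SE 0.147, adjusted p = 2.71e-06) and 1.61 (SE 0.22, adjusted p = 0.00012). AP3 (AT3G54340) rose by 1.297, SEP2 (AT3G02310) by 1.12 and STK (AT4G09960), an ovule identity gene, by 2.32 from only 2.91 ± 2.59 in wild type.

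The largest rises of the whole comparison included many genes of the anther. The tapetum is the cell layer that feeds developing pollen, and it makes the lipases, oleosin-like glycine-rich proteins and other components that coat the grain. Of 18 tested tapetum and pollen coat genes 14 were higher and none was lower, with a median log2 change of 3.45 (11 to 14 higher over the alternatives). GRP17 (AT5G07530), an oleosin-like protein of the pollen coat, read 0.46, 0 and 46.4 in wild type and 437, 657 and 350 in the double mutant. Wild type replicate 3 was far above the other two, and all mutant libraries were higher still, for a log2 change of 6.83 (SE 1.29, adjusted p = 0.00629) that depends on the added 1. EXL6 (AT1G75930), an extracellular lipase of the coat, read 0, 0 and 0.919 against 52.99, 106 and 58.5 (log2 change 5.82, adjusted p = 1.87e-07). TSM1 (AT1G67990), a tapetal methyltransferase, read 0, 8.76 and 7.28 against 183, 211 and 141 (log2 change 5.36, adjusted p = 0.00138). The other glycine-rich genes GRP14, GRP16, GRP18, GRP19 and GRP20, which lie side by side with GRP17 on chromosome 5, were all called higher, with log2 changes from 1.76 for GRP18 to 5.63 for GRP19. They are related copies, so reads may be split among them.

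Neighbouring genes on chromosome 1 rose as well: EXL4 (AT1G75910), EXL6, the myrosinase-like ATA27 (AT1G75940) and the uncharacterized AT1G75945, which read 2.97, 0 and 0.86 in wild type and 128, 119 and 119 in the double mutant (log2 change 5.98, adjusted p = 1.84e-07). NAC025 (AT1G61110), a transcription factor, rose from 0.933 ± 0.918 to 65.9 ± 21.6 (log2 change 5.19, adjusted p = 7.16e-07). With only the 2 genotypes fitted, 3 of these calls ended: the adjusted p was 0.0665 for GRP17, 0.058 for ATA27 and 0.0657 for EXL4. Among regulators of the tapetum, AMS (AT2G16910) rose by 1.42 (adjusted p = 0.00379), while MS1 (1.403, adjusted p = 0.144), TDF1 (0.89, adjusted p = 0.287) and MYB80 (-0.36, adjusted p = 0.777) did not pass the test, and none of these 3 exceeded 13.4 normalized counts in a library of either genotype.

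Genes of sporopollenin, the polymer of the outer pollen wall, also rose, 7 of 10 with none lower (6 to 8 higher over the alternatives; median log2 change 1.13). ABCG26 (AT3G13220), the transporter that exports its precursors, read 13.8, 20.3 and 29.9 in wild type and 52.8, 76.1 and 64.8 in the double mutant, without overlap (log2 change 1.604, adjusted p = 0.00421). MS2 (AT3G11980), a fatty acyl reductase, rose by 1.38, the polyketide synthase LAP5 (AT4G34850) by 1.34 and the hydroxylase CYP704B1 (AT1G69500) by 1.202.

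The list of inflorescence and seed markers shares genes with the lists above, so its rise is not a separate result. Of the 19 matched inflorescence and seed markers 8 were tested and 6 of those were higher. They include LFY, AP1, AP3, PI and AG, which the lists above also hold, and FUS3 (AT3G26790), a seed maturation factor that rose from 21.8 ± 10.1204 to 69.4 ± 8.604. The summed level of the list was 262 to 371 normalized counts in the wild type libraries and 574 to 771 in those of the double mutant. Seed storage genes CRU2, CRU3, SESA3 and SESA4, the oleosin OLEO2 and the embryo regulator LEC1 were listed at 0 in all 6 libraries. Summed tapetum and pollen coat levels were 271 to 601 against 2365 to 3362, and the part of the number or age of flower buds in the results was not tested.

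**Figure D2:**
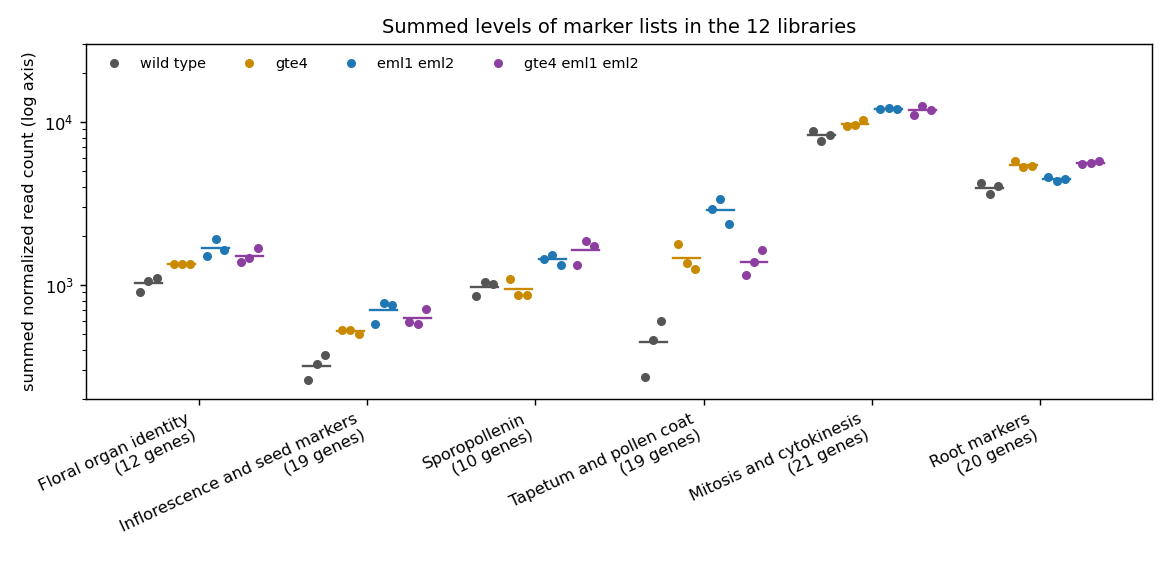
Summed normalized read count of 6 marker lists, on a log axis, in the 12 libraries, with a point per library and a bar per genotype mean. Tapetum and pollen coat sums are 271 to 601 in wild type (grey) and 2365 to 3362 in eml1 eml2 (blue), and root marker sums are 3601 to 4194 and 4338 to 4569.

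Many genes of dividing cells were higher. B-type cyclins and CDKB kinases drive mitosis, Aurora kinases act on chromosomes and the cell plate, and KNOLLE and HIK build the new cell wall. Of 21 tested members 16 were higher and none was lower (11 to 17 higher over the alternatives), with a median log2 change of 0.47. HIK (AT1G18370), a kinesin of the cell plate, read 814, 595 and 624 in wild type and 1629, 1375 and 1411 in the double mutant. It stood out among the members, with a log2 change of 1.13 (SE 0.109, adjusted p = 1.56e-05). PLE (AT5G51600), a microtubule bundling protein, rose by 0.77, the cyclin CYCB2;4 (AT1G76310) by 0.79 and AUR1 (AT4G32830) by 0.59. CDKB1;1 and CDKB1;2 did not pass the test (adjusted p = 0.582 and 0.985). The summed level of the list was 7641 to 8759.9 in wild type and 11906 to 12201 in the double mutant.

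DNA replication genes behaved alike, with 11 of 18 higher, none lower and a median log2 change of 0.397 (9 to 12 higher over the alternatives). All 6 genes of the MCM2 to MCM7 helicase that unwinds DNA at the fork were among them. MCM2 (AT1G44900) read 1099, 884 and 911 against 1572, 1479.8 and 1461 (log2 change 0.65, adjusted p = 0.000146), and the others ranged from 0.47 for MCM5 to 0.602 for MCM4. TSO2, a subunit of ribonucleotide reductase, had a log2 change of 0.044 (adjusted p = 0.71), and its partner RNR1 (AT2G21790) rose by 0.43. In the list of DNA damage genes 2 of 13 were higher and 1 lower, beside 11.6% higher and 12.0% lower over all genes tested. GMI1 (AT5G24280) rose by 0.93 and BRCA1 (AT4G21070) by 0.57. The checkpoint kinase gene ATR (AT5G40820) was lower, at 244, 206 and 212 in wild type against 144, 122 and 127 (log2 change -0.75, adjusted p = 0.000928). The inflorescence marker sums given above were also higher in the double mutant, and their part in the result was not tested.

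Of 25 tested genes of cytosolic ribosomal proteins 10 were higher and none was lower, by small steps: the largest was 0.34 for RPL3B (AT1G61580), and the median log2 change was 0.12. The count was 6 without eml12 replicate 1, without eml12 replicate 3 and with no trend in the fit. It was 19 with the trend on exon length removed. The genes had a median of 1259 exon bases against 1708 for all genes tested.

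Genes of the light-harvesting antenna and of Rubisco changed in both directions. LHCB2.1 (AT2G05100), which codes for a protein of the main light-harvesting complex, rose from 48141 ± 4179.8 to 78482 ± 8435 (log2 change 0.703, adjusted p = 0.00116), and LHCB2.2 and LHCB1.1 rose by 0.59 and 0.27. The small subunit gene RBCS2B (AT5G38420) read 62960.4, 63717 and 73192 in wild type and 26990, 29435 and 30218 in the double mutant. Every mutant library lay far below every wild type library. Its log2 change was -1.204 (SE 0.0723, adjusted p = 1.36e-07), while the neighbouring copies RBCS1B and RBCS3B changed by -0.56 and -0.23. LHCB4.3 (AT2G40100) fell by 0.64 on the log2 scale. In all, 5 of 22 members were higher and 5 lower, beside 11.6% higher and 12.0% lower over all genes tested. Without WT replicate 1 or without eml12 replicate 1, 3 members were higher. These genes are near-identical copies, so their reads may be shared.

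Called genes of the defence lists went in both directions, beside 23.6% called over all genes tested. Salicylic acid is the signal of defence against pathogens that feed on living tissue; of 29 tested genes of its pathway 1 was higher and 5 lower. PCC1 (AT3G22231), a small membrane protein regulated by pathogens and the clock, read 1939, 1924 and 2196 in wild type and 694, 570.2 and 694 in the double mutant (log2 change -1.63, SE 0.105, adjusted p = 3.37e-07). ACD6 (AT4G14400), an ankyrin membrane protein that raises immunity, went from 17995 ± 552 to 8839 ± 867 (-1.03), and WRKY54 (AT2G40750) fell by 0.596 on the log2 scale. PBS3 (AT5G13320), which conjugates glutamate to isochorismate on the way to salicylic acid, rose from 144 ± 18.02 to 303 ± 35.96 (1.07). Without eml12 replicate 3 the number of higher genes was 3.

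In the jasmonate list the storage proteins VSP1 (AT5G24780) and VSP2 (AT5G24770) rose by 1.06 and 0.99, while the synthesis genes AOC2 (AT3G25770), AOS (AT5G42650) and LOX3 (AT1G17420) had log2 changes of -0.74, -0.48 and -0.42, all called lower. These 5 were the called ones of 30 tested, and without WT replicate 2 the number of higher genes was 4. Intracellular immune receptors gave 3 higher and 1 lower of 22, led by RPP4 (AT4G16860, log2 change 0.499, adjusted p = 0.00142). The lower count was 6 once the length trend was taken out, and these genes are long, with a median of 3974 exon bases. None of 13 indole glucosinolate and camalexin genes and none of 17 touch and rapid stress genes was called by limma. At an unadjusted p under 0.05 the former had 0 higher and 0 lower and the latter 0 higher and 1 lower. The touch genes had a median log2 change of -0.45, and 3 of them were lower with a replicate block.

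**Figure D3:**
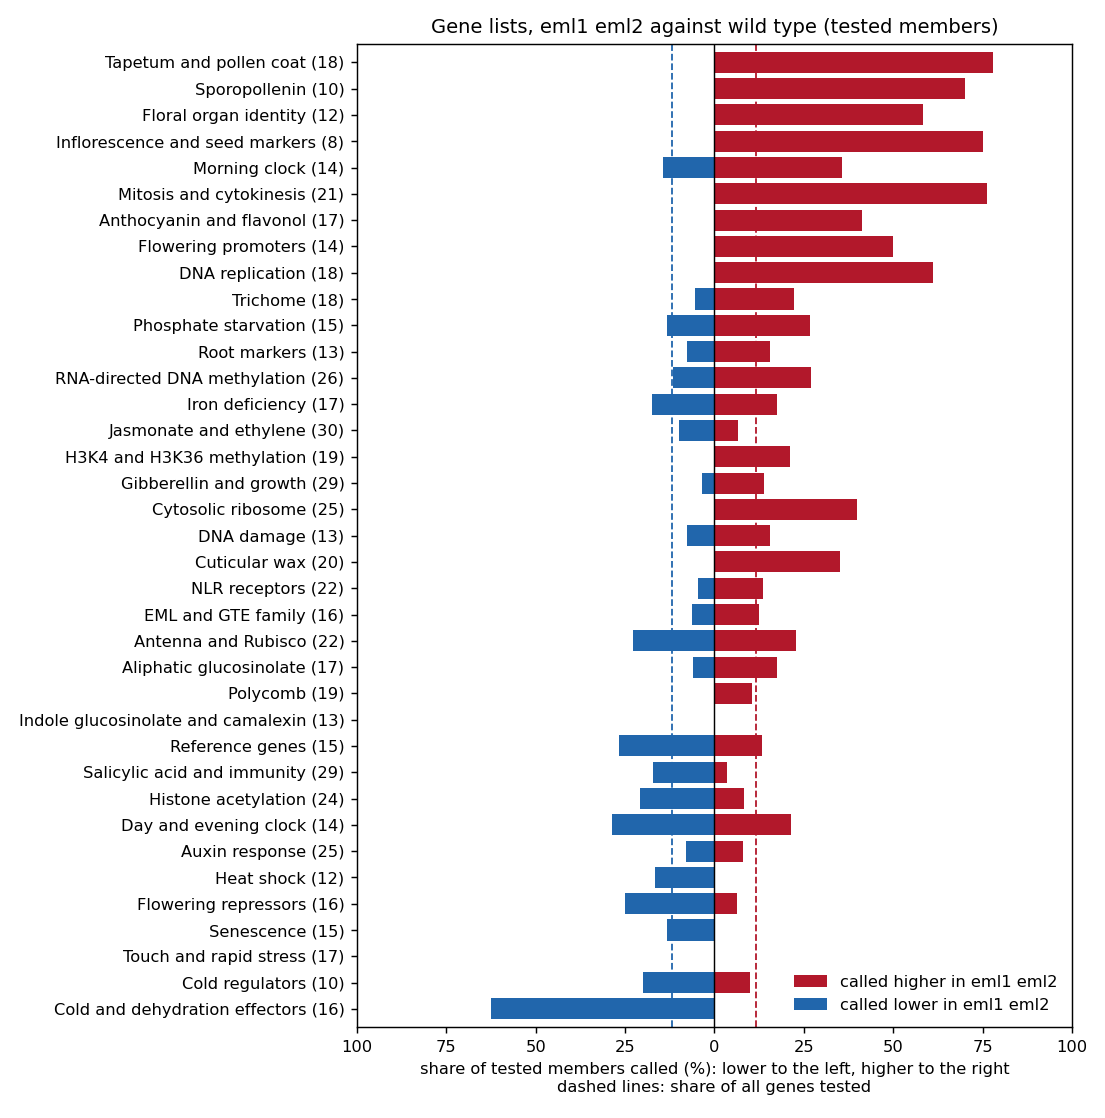
Share of the tested members of each of 37 gene lists called higher (red, to the right) and lower (blue, to the left) in eml1 eml2 against wild type, in %, ordered by median log2 change, with the number tested in parentheses. Dashed lines mark the shares over all genes tested, 11.6% higher and 12.0% lower; tapetum genes have the highest share called higher and the cold effectors the highest share called lower.

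Cuticular wax genes included 1 of the clearest single rises. MAH1 (AT1G57750), a cytochrome P450 that hydroxylates wax alkanes in the stem, read 72.1, 100.4 and 142 in wild type and 604, 1172 and 787 in the double mutant. The lowest mutant library was over 4 times the highest wild type one, and the log2 change was 3.01 (SE 0.341, adjusted p = 0.000453). WIN1 (AT1G15360), an activator of cutin and wax synthesis, rose by 1.401 and the wax ester synthase WSD1 (AT5G37300) by 0.78. In all 7 of 20 wax and cutin genes were higher and none was lower (7 to 8 higher over the alternatives). The median log2 change of the list was 0.093.

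In the list of anthocyanin and flavonol genes, enzymes and regulators together, 7 of 17 were higher, none was lower and the median log2 change was 0.45 (5 to 10 higher over the alternatives). DFR (AT5G42800), the reductase that opens the anthocyanin branch, read 146, 179 and 119 in wild type and 305, 287 and 306 in the double mutant (log2 change 1.03, adjusted p = 0.000125). LDOX (AT4G22880), the enzyme after it, rose by 0.93, and EGL3 (AT1G63650) and TTG1 (AT5G24520), which activate both with MYB partners, rose by 0.78 and 0.32. The same EGL3 and TTG1 complex acts in trichomes, leaf hairs; there GIS (AT3G58070), a zinc finger factor of trichomes on stems and flowers, read 239, 230 and 163 against 75.9, 60.7 and 50.8 (log2 change -1.73, adjusted p = 1.73e-05). Of 18 trichome genes 4 were higher and 1 lower, beside 11.6% higher and 12.0% lower over all genes tested. The higher count was 2 with only the 2 genotypes fitted or without WT replicate 2 or 3 or eml12 replicate 1 or 2. In aliphatic glucosinolate synthesis MYB76 (AT5G07700), an activator, rose by 0.92 and the chain-elongating MAM3 (AT5G23020) fell by 0.88 on the log2 scale. They were among 3 higher and 1 lower of 17, beside the same shares over all genes tested.

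Nutrient and hormone lists are given beside the 23.6% of all genes tested that were called. Of 17 iron genes 3 were higher and 3 lower: FRO3 (AT1G23020), a mitochondrial ferric reductase, rose by 0.76, and the iron storage proteins FER3 (AT3G56090) and FER4 (AT2G40300) had log2 changes of -0.49 and -0.504. IRT1 (AT4G19690), the root iron transporter, was listed at 0 in wild type and read 4.76 ± 2.71 in the double mutant (SD, n = 3). Among 15 phosphate genes 4 were higher and 2 lower, led by the galactolipid synthase MGD3 (AT2G11810, log2 change 1.09, adjusted p = 6.54e-05); without eml12 replicate 1, 2 were higher. Growth genes gave PIF4 (AT2G43010), a factor of stem elongation, at 0.46, and GASA1 (AT1G75750), a gibberellin-regulated peptide, at -0.83. They were among 4 higher and 1 lower of 29, where the higher count was 2 without WT replicate 2 and 7 with the length trend removed, and the lower count was 4 with only the 2 genotypes fitted and 3 without gte4 replicate 3. Of 25 auxin response genes 2 were higher and 2 lower, of 12 heat genes 2 were lower, and of 15 senescence genes 2 were lower. Among 15 genes often used as references 2 were higher and 4 lower, and the lower count was 0 without WT replicate 2 or eml12 replicate 2, 1 without eml12 replicate 3, and 2 in 5 other alternatives. Among 13 tested root markers 2 were higher and 1 lower, with summed levels of 3601 to 4194 in wild type and 4338 to 4569 in the double mutant.

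Counts in the chromatin lists stand beside 11.6% higher and 12.0% lower over all genes tested. Of 19 Polycomb genes 2 were higher and none lower. Of 24 genes of histone acetylation 2 were higher and 5 lower: HAF1 (AT1G32750), a TAF1-type bromodomain protein, rose by 0.47 (adjusted p = 0.000201) and the acetyltransferase HAC4 (AT1G55970) fell by 0.48 on the log2 scale (adjusted p = 0.0021). The lower count was 2 without WT replicate 3 and 3 without WT replicate 2 or eml12 replicate 1 or 2. In the H3K4 and H3K36 methylation list 4 of 19 were higher, led by the H3K4 methyltransferase ATXR3 (AT4G15180, log2 change 0.37, adjusted p = 0.00189), whose call ended with the length trend removed (0.0724) and with a replicate block and the length trend removed (0.0601). The count of 4 became 1 with the length trend removed, 2 without WT replicate 2 or eml12 replicate 3, and 7 without WT replicate 1. For Polycomb genes the count of 2 became 4 without WT replicate 1. It became 0 once the trend on exon length was taken out, and 1 Polycomb gene was then called lower.

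RNA-directed DNA methylation, in which small RNAs guide methylation of cytosines, had 7 higher and 3 lower of 26. FDM2 (AT4G00380), an RNA-binding factor of the pathway, read 392, 311 and 338 in wild type and 169, 168 and 130 in the double mutant, without overlap (log2 change -1.15, SE 0.137, adjusted p = 3.19e-05). The demethylase gene DML3 (AT4G34060) rose by 0.91 and CLSY1 (AT3G42670), which recruits RNA polymerase IV, by 0.54, whereas the demethylase gene ROS1 (AT2G36490) fell by 0.51 on the log2 scale. The higher count was 4 with the length trend removed and 12 without WT replicate 1, and members of the list have a median of 3094.5 exon bases.

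Exon length moved with the calls. In the shortest of 5 equal classes of summed exon length, 29 to 1072 bases, 4.99% of genes were higher and 12.7% lower. In the longest, 2520 to 16614 bases, 22.8% were higher and 6.54% lower. With a trend of log2 value on exon length removed in each library, the longest class had 13.3% higher and 13.7% lower, and 5022 genes were called in all, 2431 higher and 2591 lower. Whether the length of a gene or the makeup of the libraries carries this trend was not tested. Protein-coding genes made up 21402 of the genes tested, with 2550 higher (11.9%) and 2658 lower (12.4%). Of 550 long noncoding RNA genes 22 were higher (4.0%) and 7 lower (1.27%), both smaller shares than over all genes tested. Shares called also differed by level: of 3125 genes with a mean of 1 to 10, 4.45% were higher and 0.928% lower. Of genes with a mean of 1000 to 10000, 17.9% were higher and 15.7% lower. The part of level in the noncoding shares was not tested.

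**Figure D4:**
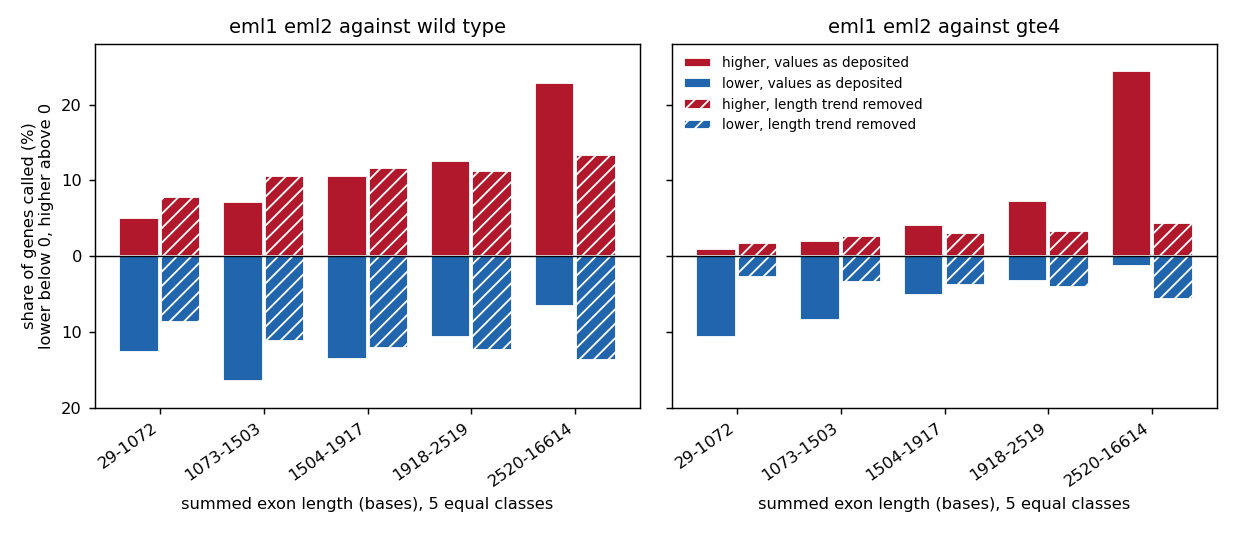
Share of genes called higher (red, above 0) and lower (blue, below 0) in 5 equal classes of summed exon length in bases, for eml1 eml2 against wild type and against gte4, with the values as deposited (plain) and with the length trend removed (hatched). With the values as deposited, the share called higher rises with length, from 4.99% to 22.8% against wild type and from 1.01% to 24.4% against gte4.

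The deepest falls outside the lists were in genes of varied annotation. AT2G43700, a lectin-like receptor kinase, read 101, 86.9 and 101 in wild type and 14.8, 6.62 and 1.298 in the double mutant. It had the largest fall of the comparison, with a log2 change of -3.899 (SE 0.53, adjusted p = 0.00019). CYP82C2 (AT4G31970), a cytochrome P450 of defence metabolism, read 12.3, 11.5 and 22.7 against 1.08, 1.92 and 0.0233 (log2 change -3.104, adjusted p = 0.000794). The F-box genes AT5G60610 (-2.39) and AT2G07140 (-2.36), AT5G08360 (-2.19), which encodes a DUF789 protein, and AT4G10695 (-2.44) were among the 12 deepest. AT4G29770, a target of trans-acting small interfering RNAs, read 3.04, 4.83 and 7.26 in wild type and was listed at 0 in every double mutant library. The cold-regulated AT3G03341 had a log2 change of -2.401 (adjusted p = 0.0147), a call that ended without eml12 replicate 1 (0.0745). MC6 (AT1G79320), a metacaspase, read 6.08, 6.78 and 4.39 against 0.0119, 0 and 2.13, and its call (adjusted p = 0.0267) ended with a pseudocount of 0.1, without WT replicate 1, 2 or 3 and without eml12 replicate 1 or 2 (adjusted p from 0.0522 to 0.0929).

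Around the mutated genes, 5 of 19 tested neighbours of EML1 and 3 of 18 tested neighbours of EML2 were called, out of 10 annotated genes on each side, beside 23.6% of all genes. FLR1 (AT3G12145), a leucine-rich repeat protein next to EML1, read 1182, 1651 and 1711 in wild type and 2416, 2668 and 2297 in the double mutant (log2 change 0.72, adjusted p = 0.0063). The DNA glycosylase gene AT3G12040, the tenth on the other side, read 119.8, 119 and 115 against 62.2, 62.7 and 52.9 (log2 change -0.98, adjusted p = 0.000507), and the kinase gene Nek7 (AT3G12200) fell by 0.28 on the log2 scale. The genes next to EML2 on either side, AT5G06770 and AT5G06790, were not called. The calls of the other 5 neighbours each ended in 1 or more alternatives, among them those of TGA10 (AT5G06839, log2 change 1.54, adjusted p = 0.0358), which ended with only the 2 genotypes fitted, with a pseudocount of 0.1, with no trend in the fit, without WT replicate 2 and without eml12 replicate 1, 2 or 3 (adjusted p from 0.05 to 0.18).

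The difference between the double mutant and gte4 was tested directly. It asks where plants labelled eml1-/-eml2-/- differ from plants labelled gte4-/-, and both were compared in the same fit. Of the genes tested 3019 were called, or 13.5%, with 1732 higher in the double mutant (7.76%) and 1287 lower (5.77%). Across the 22315 genes, Spearman's rho of the log2 difference with exon length was 0.321, beside 0.149 in the comparison with wild type, given as a description. In the longest class 24.4% were higher and 1.34% lower. Removing the length trend left 1559, of which 678 were higher and 881 lower, so that the larger direction turned, and with scaling by library totals 2176 were higher and 787 lower. The count was 1165 without gte4 replicate 1, 877 without gte4 replicate 2, and 1485, 1567 and 2000 without eml12 replicates 1, 2 and 3.

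Of the targeted genes, GTE4 was higher in the double mutant than in gte4, at 2197, 2134 and 2202 against 64.7, 99.2 and 61.02, and EML2 was lower, at 117, 112 and 94.7 against 580.3, 597 and 521. EML1 read 1006, 913 and 907 in the double mutant and 907, 978 and 1015 in gte4, and these ranges overlapped (adjusted p = 0.773). Sporopollenin genes were higher in the double mutant than in gte4 for 6 of 10 members and lower for none. Over all genes tested the shares were 7.76% higher and 5.77% lower. ABCG26 read 40.4, 19.7 and 21.8 in gte4 and 52.8, 76.1 and 64.8 in the double mutant (log2 difference 1.27, adjusted p = 0.0288). Its call ended with the length trend removed, with no trend in the fit, without gte4 replicate 2 or 3 and without eml12 replicate 1, 2 or 3 (adjusted p from 0.052 to 0.135). LAP5 differed by 1.05 (adjusted p = 0.00475). The count was 3 without gte4 replicate 2 or 3, 2 without eml12 replicate 1 or 2, 3 with no trend in the fit and 4 with the length trend removed. Of the tapetum and pollen coat genes 3 of 18 were higher, ATA20 by 0.93, A6 by 1.25 and AMS by 0.99, and 9 were higher with only the 2 genotypes fitted, 7 with a pseudocount of 10, 6 without WT replicate 3 and 1 without gte4 replicate 2. The call of A6 ended without gte4 replicate 2 (0.0512), and that of AMS with no filter on low values, with the length trend removed, with no trend in the fit, without gte4 replicate 1 or 2, without eml12 replicate 1, 2 or 3 and without gte4-eml12 replicate 1, 2 or 3 (adjusted p from 0.0508 to 0.228).

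Some transcripts of low count were higher in the double mutant than in gte4 and at or near 0 in wild type. AT5G15420, an uncharacterized protein gene, was listed at 0 in wild type, read 4.19, 0.0425 and 0 in gte4 and 45.2, 31.99 and 72.8 in the double mutant (log2 difference from gte4 4.78, adjusted p = 0.000471). AT3G28980 read 0, 0 and 0.919 in wild type, 2.14, 1.18 and 1.83 in gte4 and 31.4, 61.1 and 28.9 in the double mutant (log2 difference from gte4 3.87, adjusted p = 0.00704). VGD1 (AT2G47040), a pectin methylesterase that pollen tubes need to grow, read 0.0121, 1.12 and 0.917 in gte4 and 16.8, 104 and 33.5 in the double mutant, where replicate 2 was far above the others. Its call (log2 difference 4.65, adjusted p = 0.0326) ended with a pseudocount of 10, with the length trend removed, with no trend in the fit, without WT replicate 1, 2 or 3, without gte4 replicate 1, 2 or 3 and without eml12 replicate 1, 2 or 3 (adjusted p from 0.0501 to 0.115). In the triple mutant VGD1 read 0.96, 105 and 11.9, and replicate 2 was again the highest. VGDH2 (AT3G62170), its relative, read 7.93, 54.8 and 13.6 in the double mutant and 0.597, 52.9 and 10.6 in the triple mutant, with the same replicate highest, and at most 0.933 in any library of gte4 or wild type.

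CYP82C2 and AT5G53230 went the other way. CYP82C2 read 13.8, 11.3 and 3.46 in gte4 and 1.08, 1.92 and 0.0233 in the double mutant (log2 difference -2.34, adjusted p = 0.0121), a call that ended with a pseudocount of 10 (0.0567), without gte4 replicate 1 (0.0657) and without gte4 replicate 2 (0.0688). AT5G53230, a DUF295 protein gene, read 0.666, 0.97 and 0 in wild type, 16.01, 15.7 and 6.19 in gte4 and 2.13, 0.935 and 1.12 in the double mutant (log2 difference from gte4 -2.44, adjusted p = 0.00662). The noncoding RNA gene AT4G05715 read 12.8, 5.92 and 11.02 in gte4 and was listed at 0 in all other libraries.

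Counts in other lists depended on the length trend and on single libraries. They stand beside 7.76% higher and 5.77% lower over all genes tested. RNA-directed DNA methylation genes were higher in the double mutant than in gte4 for 17 of 26 members, and for 7 with the length trend removed, 11 with no trend in the fit, 8 without gte4 replicate 1 or 2 and 10 without eml12 replicate 2. FDM2 was called in all 23 alternatives: 71.9, 66.1 and 64.9 in gte4 against 169, 168 and 130 in the double mutant (log2 difference 1.18, adjusted p = 0.000283). For histone acetylation the count was 8 of 24 and became 0 with the length trend removed, 4 without gte4 replicate 1, 2 without gte4 replicate 2 and 5 without eml12 replicate 1 or 3. Mitosis genes were higher for 8 of 21, also with the length trend removed, and for 4 without gte4 replicate 1 or 2, 5 without eml12 replicate 2 and 4 with no trend in the fit. HIK differed by 0.59 (adjusted p = 0.00514). Ribosomal protein genes were lower for 10 of 25, and for 3 with the length trend removed or without gte4 replicate 1 or 2, 4 with no trend in the fit and 6 without eml12 replicate 1.

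Among the cold effectors 2 of 16 were higher and 1 lower than in gte4, beside 7.76% higher and 5.77% lower over all genes tested. Their median log2 difference was -0.073. COR15A stood at 3890.5, 3786 and 3568 in gte4 and 3196, 3735 and 3945 in the double mutant, and these ranges overlapped (log2 difference -0.053, adjusted p = 0.633). None of the 14 morning clock genes was called between the mutants by limma (1 higher and 1 lower at an unadjusted p under 0.05), with CCA1 at 164, 133 and 115 in gte4 and 140.2, 102 and 107 in the double mutant. A difference that misses the threshold does not show that the mutants are alike.

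The triple mutant against the double mutant shows where plants labelled gte4-/-eml1-/-eml2-/- differ from plants labelled eml1-/-eml2-/-. Here 370 genes were called, or 1.66%, with 95 higher in the triple mutant (0.426%) and 275 lower (1.23%). Same-numbered samples of these 2 genotypes deviated together, which the fit behind the 370 calls leaves out. With a replicate block fitted over all 12 libraries 682 were called, 204 higher and 478 lower. Without single libraries of the double mutant 131 to 205 were called, and without single libraries of the triple mutant 155 to 258. Apart from GTE4, the deepest falls included 3 genes that were also called higher in the double mutant against wild type. Both comparisons share the double mutant libraries.

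The Kunitz protease inhibitor gene AT1G72290 read 0, 0 and 0.919 in wild type, 17.4, 31.5 and 22.02 in the double mutant and 0.0367, 0.0363 and 3.09 in the triple one. From double to triple mutant it fell, with a log2 change of -3.87 (SE 0.623, adjusted p = 0.00485). HA6 (AT2G07560), a proton pump of the plasma membrane, read 24.7, 28.5 and 26.4 in the double mutant and 0.096, 0.095 and 8.24 in the triple mutant; the call (log2 change -3.62, adjusted p = 0.013) ended with only the 2 genotypes fitted, with a pseudocount of 0.1, with no trend in the fit, without eml12 replicate 1 or 2 and without gte4-eml12 replicate 1 or 2 (adjusted p from 0.0507 to 0.0761). AT3G12000, an S-locus related protein gene, read 15.01, 18.1 and 8.98 against 0.0123, 0.0122 and 1.04 (log2 change -3.51, adjusted p = 0.00935), a call that ended with a pseudocount of 0.1 (0.111) and without eml12 replicate 2 (0.0656). These 3 genes were at or near 0 in wild type.

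Of the tapetum and pollen coat genes 4 of 18 were lower in the triple than in the double mutant, with a median log2 change of -1.26. Over all genes tested 1.23% were lower. EXL6 read 52.99, 106 and 58.5 in the double mutant and 7.24, 19.1 and 13.6 in the triple mutant (log2 change -2.38, adjusted p = 0.00576; the call ended with a pseudocount of 0.1 (0.119)), and GRP14 (AT5G07510) read 49.2, 48.5 and 27.9 against 4.71, 8.996 and 5.26 (-2.55, adjusted p = 0.00294). The groups of both genes stood apart. The count was 8 with only the 2 genotypes fitted, 7 with a pseudocount of 10 or without WT replicate 3, and 2 with no trend in the fit or without eml12 replicate 1, eml12 replicate 2 or gte4-eml12 replicate 2. None of the sporopollenin genes was called by limma in this comparison (1 higher and 1 lower at an unadjusted p under 0.05), while 1 was called lower with the replicate block. Their summed levels were 1331 to 1527 in the double mutant and 1320.2 to 1844 in the triple mutant.

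CYP82C2 was higher in the triple mutant, at 26.9, 17.2 and 8.53 against 1.08, 1.92 and 0.0233 in the double mutant (log2 change 3.204, adjusted p = 0.00644). AT1G67105, a noncoding RNA gene, read 6.46, 7.72 and 9.91 in wild type, 62.1, 58.9 and 40.9 in gte4, 37.4, 28.4 and 30.8 in the double mutant and 105, 100.2 and 138 in the triple mutant. Its step from double to triple mutant was 1.79 (adjusted p = 0.0012). Of the cold effectors 2 of 16 were lower in the triple mutant, beside 1.23% over all genes tested. These were COR15A with a log2 change of -0.34 (adjusted p = 0.0101) and COR15B with -0.37 (adjusted p = 0.0189). The call of COR15A ended with no trend in the fit (0.0741), without eml12 replicate 2 (0.0653) and without gte4-eml12 replicate 1 (0.0532), and that of COR15B with only the 2 genotypes fitted, with no trend in the fit, without eml12 replicate 2 or 3 and without gte4-eml12 replicate 1 or 2 (adjusted p from 0.0652 to 0.152). RBCS2B read 26990, 29435 and 30218 in the double mutant and 16312, 16578 and 18887 in the triple mutant (log2 change -0.74, adjusted p = 7.61e-05).

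**Figure D5:**
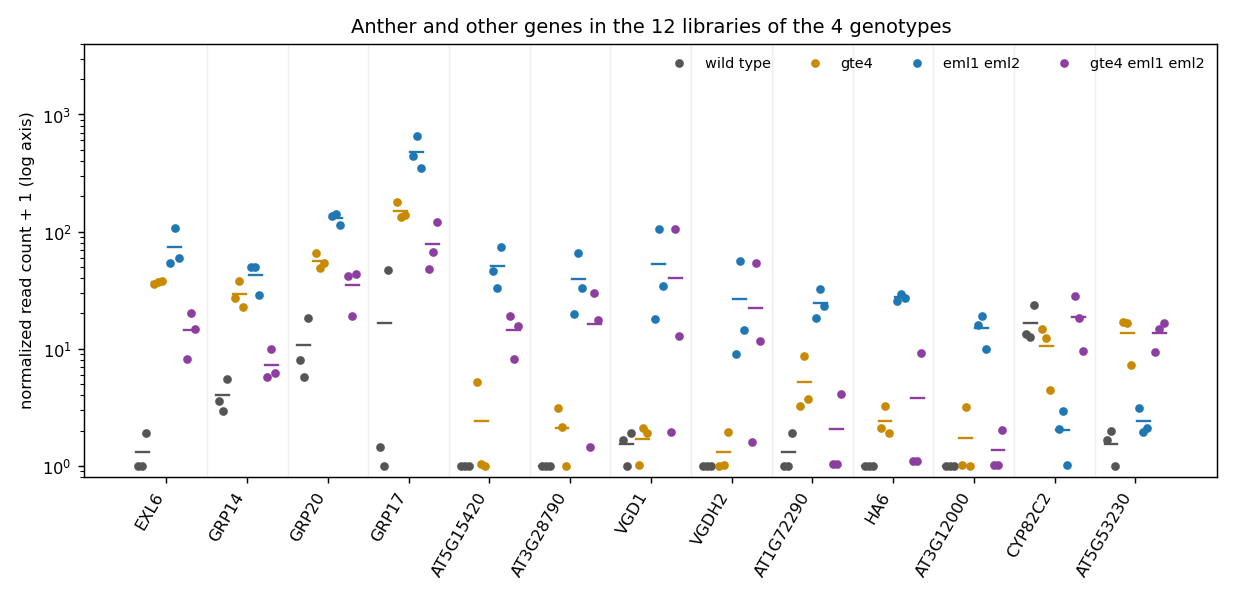
Normalized read count plus 1, on a log axis, of 13 genes in the 3 libraries of each of the 4 genotypes, with a bar per genotype mean. AT5G15420, AT3G28790, VGD1 and VGDH2 are at 4.19 or below in wild type and gte4, and EXL6, GRP14, AT1G72290 and AT3G12000 are lower in the triple mutant than in eml1 eml2.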

How the data were processed

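RNA of 12 whole-seedling samples, 3 of each of 4 genotypes, was sequenced as read pairs of 150 bases on a NovaSeq 6000, per the labels' protocols. The submitters' processing notes name bcl2fastq, HISAT2, edgeR and the TAIR10 build, without versions. The deposited values are a normalized, count-like signal per gene that the authors made from their reads. How they were scaled, and whether strand was used, are not given in the sources used here. Whole reads could not be recovered from the values, so the depth in reads is unknown and no count test was run. Reads of near-identical or overlapping genes may be split between them.

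Genes with a mean of at least 1 were fitted with limma 3.58.1 in R 4.3.3 on log2(value + 1), with a mean-variance trend, robust moderation and 1 coefficient per genotype over all 12 libraries. P-values were adjusted by Benjamini-Hochberg over all genes tested, genes under 0.05 were called, and adjusted p-values in the text come from this fit unless the sentence names an alternative. The added 1 makes folds of low genes too small. An exact permutation test of 3 against 3 cannot go below p = 0.1. The fit was tested on simulated data with independent libraries and changes placed only in genes of higher count. That test does not cover changes in genes of few counts, paired samples or the length trend.

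All 32548 gene IDs matched the RefSeq annotation of TAIR10.1, used for names, exon lengths, neighbours and promoter sequences. The 37 gene lists were matched by symbol, and 690 distinct genes were found, of which 650 were tested. The members and lists were chosen with earlier results of these data known. Named genes were the 12 largest called changes each way without overlap against wild type, up to 5 called members of each list, the targeted genes with FLC, FT and SOC1, called neighbours of EML1 and EML2, and the 8 largest changes each way against the other mutants. Other genes were singled out after their values were seen.

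The replicate numbers of the double and triple mutant were taken as pairs. Their same-numbered libraries deviated from the group means together, with correlations from 0.182 to 0.217, all above the limit of 0.1. The main fit has no term for this pairing, so its calls and adjusted p-values between these genotypes leave it out. Alternatives were pseudocounts of 0.1 and 10, no filter or a minimum mean of 20, other scalings, removal of the trend on exon length, a fit without trend and robust moderation, only the 2 genotypes compared, a replicate block, and leaving out each library.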

Additional observations from a re-analysis of the deposited data

How the results depend on the processing

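Against wild type, the number of genes called stayed within 1.5 times the reported 5271 under all 23 alternatives, from 3756 to 5500 where single libraries were left out (1897 to 2767 higher, 1859 to 2812 lower). With a replicate block it was 6587, but same-numbered libraries of the double mutant and wild type had correlations from -0.000243 to 0.158, and 2 of 3 double mutant libraries were closest to their own number, so the numbers are not taken as pairs. Against gte4, the 3019 calls became 1559 (678 higher, 881 lower) with the length trend removed and 1491 (865 higher, 626 lower) with no trend and no robust moderation, and scaling by library totals gave 787 lower. Leaving out single libraries gave 877 to 3723 (478 to 2034 higher, 399 to 1689 lower), and the replicate block gave 4250, also without pairing by the numbers. For the triple against the double mutant, the 370 calls became 199 (35 higher, 164 lower) with no trend and 682 (204 higher, 478 lower) with the replicate block. They became 823 (339 higher, 484 lower) with that block and the length trend removed. The block gave all 12 libraries a common effect per replicate number, while the numbers were taken as pairs only for the double and triple mutant. Leaving out single libraries gave 131 to 449 (22 to 120 higher, 109 to 329 lower). The cause of these moves was not tested. Of the values of single named genes under the alternatives, 4891 kept their direction and their side of the threshold, 417 lost the threshold, 9 gained it and none changed direction. Of the counts per gene list against wild type 1504 stayed within 1.5 times and 198 did not. List counts of the other 2 comparisons are not part of this tally, and those against gte4 given above moved with single libraries and the length trend. The depth in reads is unknown, so no limit from counting error could be given, and genes of few counts rest on the spread of 3 libraries.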
